A study of Mus musculus with 3 samples.

Results

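The genes described here encode the proteins of the cytosolic ribosome. They were taken from the gene tables of 3 RNA sequencing libraries by symbol: Rpl or Rps followed by a digit, Rplp followed by a digit, or Rpsa, at 1 FPKM (read fragments scaled to transcript length and sequencing depth) or more in any library. The rule gave 77 of 17615 listed genes, of which 31 belong to the small subunit, 43 to the large subunit and 3 to the stalk of the large subunit. It left out 7 pseudogenes, 11 paralogs or retrotransposed copies, 10 S6 kinase genes and the gene of 1 binding protein, Rps19bp1. All 77 genes reached the minimum in each library, so no member was lost to a filter.

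The libraries came from macrophages of mice with acute myeloid leukemia, with 1 library in each of 3 groups. C57BL/6J mice of 6 to 8 weeks received 800000 leukemia cells that carried GFP and BFP, without irradiation. The labels give mouse survival as 30 to 40 days, which is past the sort at day 18 described below. The leukemia cells of 1 group carried mM-CSF at a high level and those of another sM-CSF at a high level. The label of the control group names neither. M-CSF is macrophage colony-stimulating factor, the ligand of the receptor CSF1R (CD115), and what the prefixes m and s stand for is not given in the labels. At day 18 the GR1- CD115int F4/80+ cells were sorted from the spleen, and each library was made from 1 ug of total RNA. All recipients thus carried leukemia, no healthy mouse is among the 3 libraries, and the labels do not say whether animals were pooled.

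Each ribosome is built from a small subunit that reads the mRNA and a large subunit that forms the peptide bond, and each protein is present in a fixed ratio to the ribosomal RNA, except the acidic stalk proteins, which are present in several copies. The mRNAs of these genes are among the most abundant in growing cells. They begin with a run of pyrimidines at the cap (the terminal oligopyrimidine, or TOP, sequence) through which mTOR signalling sets their translation. RNA sequencing measures the level of these mRNAs and not their translation or the number of ribosomes.

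The labelled cell type was checked against marker genes. Values for the 3 libraries are given throughout in the order control, mM-CSF, sM-CSF. All 12 macrophage markers were detected in each library: Csf1r, which encodes the M-CSF receptor, was at 268, 222 and 149 FPKM, and Adgre1, which encodes F4/80, was at 101, 67.5 and 65.5. The 12 summed to 1924, 3838 and 1769 FPKM, with 8 of 12 above the control in the mM-CSF library, among them the complement genes C1qa (254, 1129 and 366 FPKM) and C1qb (271, 1231 and 385). Markers of other cells were also present, and each of those listed in the tables was above 0 in every library. The summed level of 7 plasma cell markers was 1407, 4342 and 1460 FPKM, that of 8 B cell markers 1353, 2702 and 2493, that of 6 myeloid granule genes 173, 924 and 190, and that of 7 erythroid genes 3057, 2396 and 2042. The T cell markers summed to 233, 475 and 406 FPKM, those of NK cells to 253, 504 and 323, of neutrophils to 42.4, 256 and 53.2, of monocytes to 812, 489 and 423, of conventional dendritic cells to 274, 45.2 and 237, and of progenitors to 83.9, 54.5 and 79.3. Against the control, with 8.97% of all genes 2-fold higher and 15.1% lower in the mM-CSF library, 4 of 7 plasma cell, 2 of 8 B cell, 6 of 6 granule, 4 of 8 neutrophil and 1 of 6 NK cell genes were higher there. Macrophage genes had 3 of 12 higher and 1 lower, T cell genes 4 of 7 higher and 1 lower, and monocyte genes 1 of 7 higher and 4 lower. Of conventional dendritic cell genes 6 of 6 were lower, of erythroid genes 2 of 7 and of progenitor genes 1 of 8. In the sM-CSF library, with 0.785% of all genes higher and 1.63% lower, 2 of 8 B cell, 3 of 7 T cell and 1 of 6 granule genes were higher, and 3 of 7 monocyte and 2 of 7 erythroid genes were lower. Their part in the results below was not tested. The tables held 16470, 16194 and 16401 genes, and their expected counts summed to 9088200, 8570732 and 8943847. With 1 library in a group there is no replicate, so no test between groups could be made. Intervals below are 95% intervals of the counting error alone, and a difference larger than that interval may still lie within the spread between mice.

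Ribosomal protein genes took a larger part of the counts in both M-CSF libraries than in the control. They held 5.20% of the expected counts in the control library (exact Clopper-Pearson interval 5.19 to 5.22), 12.3% in the mM-CSF library (12.3 to 12.4) and 7.19% in the sM-CSF library (7.17 to 7.21). The share in the mM-CSF library was thus 2.37 times that in the control (2.36 to 2.38) and 1.72 times that in the sM-CSF library (1.71 to 1.72). The sM-CSF share was 1.38 times the control share (1.38 to 1.39). Shares are parts of a whole, so a larger share of these genes is also a smaller share of others, and in bulk RNA fewer cells of a type and less RNA per cell cannot be told apart.

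The subunits differed little from each other. Small-subunit genes held 2.13%, 5.13% and 2.99% of the counts, large-subunit genes 2.76%, 6.496% and 3.78%, and stalk genes 0.315%, 0.706% and 0.422%. Of the counts of both subunits together, the small subunit had 43.6%, 44.1% and 44.2%. The 10 members with the most counts held 26.2%, 26.0% and 25.9% of the family's counts, so the larger share was spread over the family and was not carried by a few genes.

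**Figure D1:**
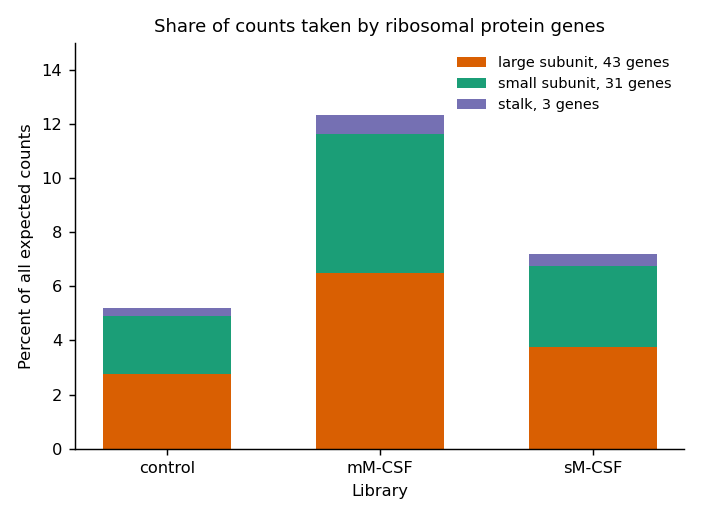
Percent of all expected counts (vertical axis) held by large-subunit, small-subunit and stalk genes in each of the 3 libraries (horizontal axis), as stacked bars from 0. The stack is highest in the mM-CSF library at 12.3%, against 7.19% in the sM-CSF library and 5.20% in the control, and each of the 3 colours follows that order.

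Per length, the members spanned a wide range of levels whose order was nearly the same in each library. The median member was at 923, 2056 and 1258 FPKM. The lowest member in all 3 was Rps15a, a protein of the small subunit, at 39.6, 93.1 and 62.8 FPKM. The most abundant member in the control was Rps27, a zinc finger protein of the small subunit, at 2157, 5636 and 3482 FPKM. Rpl41, whose product is the shortest ribosomal protein, was at 1996, 6219 and 2782 FPKM and was the most abundant member of the mM-CSF library. Spearman's rho of the 77 levels was 0.967 between the control and mM-CSF libraries, 0.989 between control and sM-CSF and 0.980 between the M-CSF libraries. These correlations are across genes, which share their libraries and are not replicates.

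Every member had its highest FPKM in the mM-CSF library and its lowest in the control. The order mM-CSF, sM-CSF, control held for 77 of 77 members, and for 29.7% of the 9915 genes of the tables that reached 5 FPKM in any library. After Rps27 and Rpl41, the most abundant members in the control were Rps15 at 1887, 5136 and 2875 FPKM, Rpl23a at 1584, 3207 and 2118, and the stalk gene Rplp1 at 1553, 4598 and 2357. At the other end, Rpl22, a large-subunit protein that is dispensable for translation in general but needed in developing T cells, was at 91.4, 187 and 120 FPKM. Rps20, a small-subunit protein, was at 101, 280 and 153 FPKM, Rpl39 at 239, 541 and 338, and Rpl31 at 274, 702 and 371. Spearman's rho between the level in the control and the difference between the mM-CSF and control libraries was 0.03 over the 77 members.

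**Figure D2:**
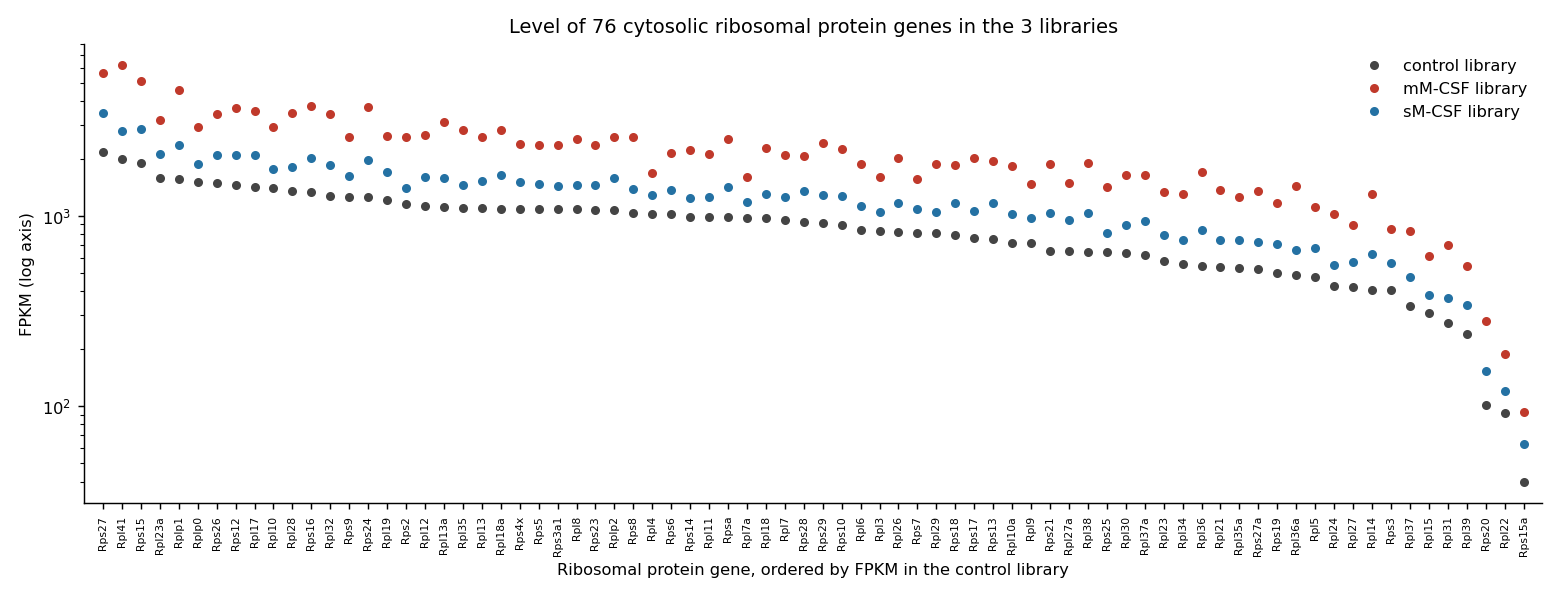
Level in FPKM (vertical axis, log scale) of 76 ribosomal protein genes (horizontal axis, ordered by the control library), with 1 point for each library. The mM-CSF point lies above the sM-CSF point and the sM-CSF point above the control point for each gene shown, from Rps27 at 2157 FPKM in the control to Rps15a at 39.6.

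The start regions of 6 members are shown because the pyrimidine run at the start is a known shared feature of these genes that the choice of members did not use. RefSeq promoter windows on GRCm38.p6 were matched by NCBI gene ID for 57 of the 77 members. The search was for a stretch of at least 5 pyrimidines on the gene's own strand. Its first base had to be a C within 10 bases of the annotated start. Such a stretch can be the end of a run that begins farther upstream, and is called a run here. A run was found in 34 of the 57 (59.6%), against 34.3% of 26968 other genes in the same table. Of the 7863 others that reached 5 FPKM here, 37.3% held one. Printed are the 3 members with the highest and the 3 with the lowest difference between the mM-CSF and control libraries among those 34, from 40 bases before the annotated start to 20 bases after it, 5′ to 3′ on the strand of the gene. Capitals mark the stretch found, which in Rpl7a is cut at the limit of 10 bases.
Rpl14, chr9:120571477-120571536, plus strand: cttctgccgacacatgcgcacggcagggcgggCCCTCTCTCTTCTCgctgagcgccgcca
Rps24, chr14:24490638-24490697, plus strand: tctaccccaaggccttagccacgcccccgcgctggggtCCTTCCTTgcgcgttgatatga
Rpl36a, chrX:134585614-134585673, plus strand: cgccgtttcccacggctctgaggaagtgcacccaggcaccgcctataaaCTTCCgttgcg
Rpl7a, chr2:26910767-26910826, plus strand: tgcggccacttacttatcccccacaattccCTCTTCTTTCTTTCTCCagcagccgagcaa
Rps7, chr12:28635934-28635993, minus strand: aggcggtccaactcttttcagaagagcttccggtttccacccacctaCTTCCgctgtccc
Rpl15, chr14:18270967-18271026, minus strand: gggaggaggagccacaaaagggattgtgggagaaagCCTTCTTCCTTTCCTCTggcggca

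The runs differed in length and place within each end of the range. Rpl14 (14 bases) and Rpl7a (17 bases marked, the end of a longer run) both have a long run across the start. They had the highest and the lowest difference of the family. In Rpl36a and Rps7 the run has 5 bases and begins 9 and 7 bases after the annotated start, so it is not at the annotated first base. The median difference between the mM-CSF and control libraries was 1.23 on the log2(FPKM + 1) scale for the 34 members with a run (range 0.72 to 1.67) and 1.20 for the 23 without one (0.72 to 1.64), so members with and without it spread over the same range. For the sM-CSF library the medians were 0.49 and 0.47. Of other short motifs searched on both strands of the whole window, from 250 bases before to 50 after the start, CGGAAG was in 40 of 57 members (70.2%) against 18.7% of all other genes and 38.0% of those at 5 FPKM or more. CTCTTTCC, which overlaps the pyrimidine runs, was in 10 (17.5%) against 3.54% of all other genes, AAGATGG in 9 (15.8%) against 7.26%, and TATAAA in 6 (10.5%) against 15.7%. Of other genes at 5 FPKM or more, 3.68% held CTCTTTCC, 9.04% AAGATGG and 8.43% TATAAA, so for TATAAA the direction depends on the genes compared. A match describes the letters of the window and is not evidence that a factor binds there. Members with CGGAAG had a median mM-CSF difference of 1.22, as did those without it.

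The first comparison asks how the family differed in macrophages from leukemia with high mM-CSF. On the log2(FPKM + 1) scale the 77 members were higher by a median of 1.23 (SD over members 0.19, range 0.72 to 1.67), which is 2.35-fold. A gene counts here as 2-fold higher or lower where the difference is 1 or more in size, with at least 5 FPKM in the higher of the libraries compared. By that rule 72 of 77 members were higher and 0 were lower, against 8.97% higher and 15.1% lower among all 9789 genes tested. The median over all genes at 1 FPKM or more was -0.07. Among 2110 other genes in the length range of the members (10th to 90th percentile) the median was 0.71, and 27.5% of the 2086 tested were 2-fold higher and 3.98% lower, so short genes as a class were higher in this library.

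The largest differences were in genes of both subunits. Rpl14, a large-subunit protein, was at 408, 1299.7 and 633 FPKM, a difference of 1.67 between mM-CSF and control. Its count share was 3.21 times that of the control (3.08 to 3.33). Its pseudogene Rpl14-ps1 held 30.98%, 8.65% and 16.1% of their joined counts in the 3 libraries. With both joined, the log2 ratio of shares between the mM-CSF and control libraries was 1.28 in place of 1.68, so the place of Rpl14 above the other members depended on how reads were divided between the copies. The other large differences were those of Rpl36 (543 to 1695 FPKM, 1.64), Rpl41 (1.64), Rps24 (1261 to 3755 FPKM, 1.57), Rplp1 (1.57) and Rpl36a (488 to 1440 FPKM, 1.56). Mutations in human RPS24 are among the causes of Diamond-Blackfan anemia, a failure of red cell formation.

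The 5 members under 2-fold were still higher. Rpl7a was at 973 FPKM in control and 1602 in mM-CSF cells (0.72), Rpl4 at 1021 and 1683 (0.72), Rpl3, a protein near the site of peptide bond formation, at 836 and 1601 (0.94), Rps7 at 810 and 1569 (0.95), and Rplp0, the base of the stalk, at 1508 and 2922 (0.95). The smallest share ratio, that of Rpl7a, was 1.66 (1.61 to 1.71), and its interval does not reach those of the members at the top. Rpl15, just past the rule, was at 308 and 617 FPKM (1.00).

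The following members with a known role outside the ribosome or in disease had differences from 1.07 to 1.37. Rpl5 and Rpl11, which with 5S RNA bind the p53 regulator MDM2, went from 478 FPKM in the control to 1111 (1.22) and from 986 to 2115 (1.10). Rps6, the phosphorylation target of the S6 kinases, was at 1015 and 2133 FPKM (1.07). Rps19, the gene most often mutated in Diamond-Blackfan anemia, was at 497 and 1168 FPKM (1.23), and Rps14, whose human gene lies in the segment lost in the 5q- syndrome, was at 990 and 2210 FPKM (1.16). Rpl10, a protein that joins the large subunit late and is mutated in some T cell leukemias, was at 1401 and 2940 FPKM (1.07). Rpsa, which is also described as a laminin receptor, was at 983 and 2536 FPKM (1.37), and Rps27a, made as a fusion with ubiquitin, at 527 and 1343 FPKM (1.35).

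The difference moved with gene length in the whole table, and most members are short. Listed lengths of the members ran from 328 bases (Rps28) to 5158 (Rps15a) with a median of 710, against a median of 2659 over 9825 other genes at 5 FPKM or more. Over those genes Spearman's rho of the mM-CSF difference with length was -0.66, and over the members it was -0.41. Each member was therefore set against the median of the 100 genes outside the family nearest to it in listed length. Less that median, the members were higher by a median of 0.30 (range -0.21 to 1.97). The value was above 0 for 75 of 77 members, against 50.6% of all genes treated alike. It was 2-fold higher for 5 members and 2-fold lower for 0, against 3.26% and 7.57% of all genes. The median member was exceeded by 22 of its 100 comparison genes.

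The members 2-fold higher than genes of like length were Rps15a (1.97), Rps20 (1.72), Rpl5 (1.13), Rpsa (1.04) and Rpl21 (1.02). They are among the 8 members listed at 1500 bases or longer, where other genes had a median difference of -0.24 while these 8 had 1.21. Below 1500 bases the members' median was 1.24 and that of other genes 0.75. Rps15a, Rps20 and Rpl5 exceeded each of their 100 comparison genes. The members thus varied less with listed length than the comparison genes did. Rps28 was at 923, 2056 and 1344 FPKM, and 49 of its 100 comparison genes, of 154 to 508 bases, exceeded its mM-CSF difference of 1.15. Rpl7a and Rpl23a were the members below genes of like length, at -0.21 and -0.10.

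The listed length does not always equal the length of the transcript that a cell makes. For Rps15a the tables list a single transcript of 5158 bases, while coding transcripts of this gene in GENCODE M21 run from 640 to 5179 bases. An FPKM is divided by the listed length, so the low level of Rps15a rests on that choice of transcript. Its coding sequence has 390 bases. When each member was set against the 100 genes nearest in coding length instead, a comparison added after the data were seen, Rps15a was higher by 0.37 and Rps20 by 0.86. On that scale the family's median was 0.72 (range 0.16 for Rpl22 to 1.42 for Rpl14), 77 of 77 members were above 0, against 50.7% of all genes. The value was 2-fold higher for 3 members (Rpl14, Rpsa and Rpl10a, the last named because of its value) and 2-fold lower for 0, against 3.61% and 9.54% of all genes, so the share past 2-fold was near that of all genes. The direction was thus the same on both length scales, with medians of 0.30 and 0.72. With coding length, Spearman's rho of the mM-CSF difference was -0.52 over the members and -0.55 over other genes. For sM-CSF against control these were -0.47 and -0.33, and for mM-CSF against sM-CSF -0.35 and -0.54. The weaker trend of the members thus did not hold in each comparison on this scale.

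**Figure D3:**
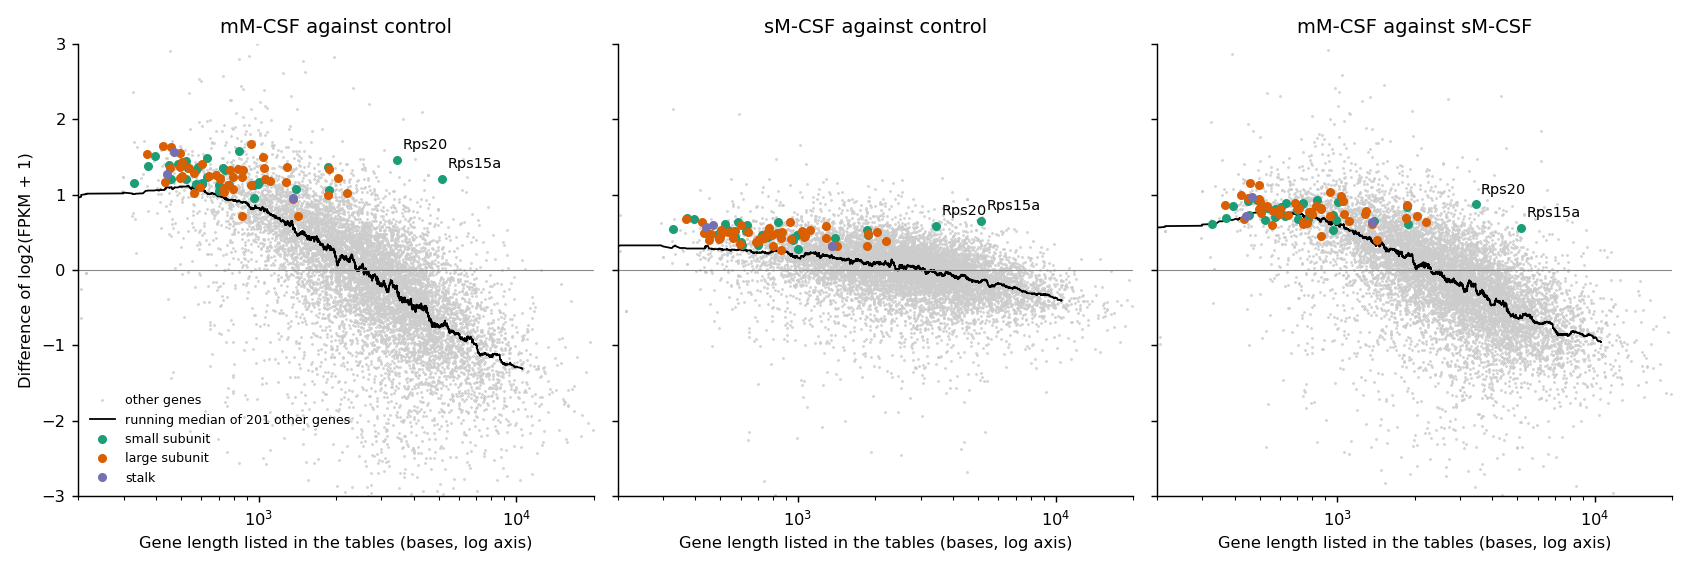
Difference of log2(FPKM + 1) (vertical axis, shown from -3 to 3) against listed gene length (horizontal axis, log scale, 200 to 20000 bases) in the 3 comparisons, with other genes at 5 FPKM or more in grey, their running median over 201 genes as a line, and members coloured by subunit. The line falls with length beyond the shortest genes in each panel, while the members in the first panel lie between 0.72 and 1.67 at all their lengths, and Rps20 and Rps15a at the right lie farthest above the line.

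The second comparison concerns high sM-CSF against the same control library, so its values share the control with those above. The members were higher by a median of 0.48 (SD over members 0.10, range 0.27 to 0.69), which is 1.39-fold. None of the 77 reached 2-fold, against 0.785% of 9683 genes higher and 1.63% lower, and 77 of 77 were above 0, against 52% of all genes. The largest differences were those of Rps27 (0.69), Rpl38 (648 FPKM in control and 1038 in sM-CSF cells, 0.68), Rps21 (652 and 1039 FPKM, 0.67), Rps15a (0.65), Rps24 (0.64) and Rpl36 (0.64). Rpl38 is known for its part in the translation of Hox mRNAs in the embryo. The smallest were those of Rpl7a (973 and 1175 FPKM, 0.27), Rps2 (1150 and 1392 FPKM, 0.28), Rpl15 (0.31), Rplp0 (0.32), Rpl3 (0.32) and Rpl4 (0.32).

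Less genes of like listed length, the sM-CSF difference of the members had a median of 0.23 (range -0.01 to 0.82), with 76 of 77 above 0 against 50.6% of all genes. No member was past 2-fold on that scale, against 0.444% of genes higher and 1.82% lower. Rps15a (0.82) and Rps20 (0.62) were at the top. Rps27 and Rpl38, among the shortest members, followed at 0.42 and 0.41, then Rpsa (0.41) and Rpl5 (0.40). Among the lowest were Rpl7a (-0.01), Rps14 (0.05), Rpl11 (0.07), Rpl10 (0.08) and Rps2 (0.11). Against genes of like coding length the median was 0.34, 77 of 77 were above 0 against 50.4% of all genes, and none was past 2-fold, against 0.262% of all genes higher and 1.48% lower. The trend with length over other genes was smaller here, with Spearman's rho of -0.43, and the median of the 2110 other genes in the members' length range was 0.19, with 1.14% of the tested 2-fold higher and 1.29% lower.

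The third comparison sets the M-CSF libraries against each other. The members were higher in the mM-CSF library by a median of 0.77 (SD over members 0.14, range 0.40 to 1.16). Rpl41 (1.16), Rpl36a (1.12), Rpl14 (1.04) and Rpl36 (1.00) reached 2-fold, which is 4 of 77, against 3.79% of 9574 genes higher and 8.73% lower. With Rpl14-ps1 joined, the log2 ratio of shares for Rpl14 was 0.92 in place of 1.05, below 2-fold. Of other genes in the length range of the members 11.7% were 2-fold higher and 2.4% lower. All 77 members were above 0, against 45.5% of all genes. Rpl13a (1107, 3123 and 1580 FPKM), which also acts off the ribosome in the interferon-activated GAIT complex of myeloid cells, followed at 0.98 and Rplp1 at 0.96. The lowest were Rpl4 (0.40), Rpl7a (0.45), Rps7 (0.53), Rps15a (0.56), Rpl23a (0.60) and Rpl9 (0.60).

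Less genes of like listed length, this comparison left little. The median was 0.08 (range -0.24 to 1.20), 52 of 77 members were above 0 against 50.3% of all genes, and 25 members were exceeded by 50 or more of their 100 comparison genes. Rps15a (1.20) and Rps20 (1.08) were 2-fold higher, against 2.19% of all genes (4.24% were lower), and Rpl21 (0.67), Rpl5 (0.67), Rpsa (0.64) and Rpl22 (0.60) followed. Rpl7a (-0.24), Rpl23a (-0.21), Rps28 (-0.20), Rpl39 (-0.19), Rps18 (-0.18) and Rps27 (-0.17) were lowest. Against genes of like coding length the median was 0.39, with 76 of 77 above 0 against 50.9% of all genes. None was past 2-fold on that scale, against 2.26% of all genes higher and 4.73% lower, so the size of this difference depends on which length is used.

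**Figure D4:**
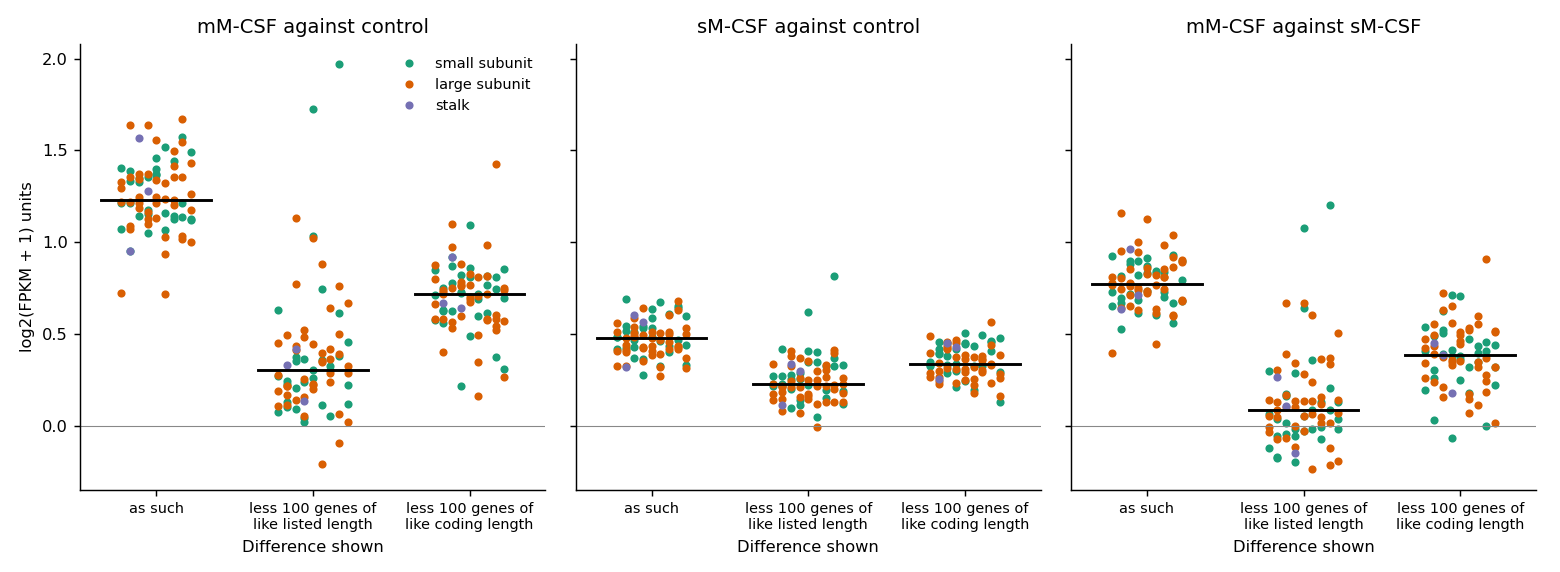
Values of the 77 members in log2(FPKM + 1) units (vertical axis) in the 3 comparisons: the difference as such, less the median of 100 genes of like listed length, and less that of 100 genes of like coding length (horizontal axis), with medians as black lines. For mM-CSF against control the medians are 1.23, 0.30 and 0.72, for sM-CSF against control 0.48, 0.23 and 0.34, and for mM-CSF against sM-CSF 0.77, 0.08 and 0.39.

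Scaling also sets the size of these differences. Rescaling to TPM, which makes the summed level per length equal in each library, shifted the all-gene median by -0.43, -0.13 and -0.30 in the 3 comparisons, in the order given above, and the members' medians to 0.77, 0.33 and 0.45. Relative to the median of all genes the members were higher by 1.299, 0.46 and 0.88 as deposited and by 1.27, 0.44 and 0.86 as TPM. On the TPM scale 10 of 77 members were 2-fold higher in the mM-CSF library than in the control and 0 lower, against 2.5% of all genes higher and 30.3% lower. All 77 members were above 0 in each comparison under each scaling tried.

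Genes near the family that the rule leaves out were given the same measures. Fau, which encodes a small-subunit protein fused to a ubiquitin-like protein, was at 1222, 3004 and 1714 FPKM. Its mM-CSF difference of 1.297 and sM-CSF difference of 0.49 fell within the range of the members. Rack1, a scaffold protein on the small subunit, was at 902, 1710 and 1139 FPKM (0.92 and 0.34). The paralogs Rpl22l1 (52.4, 135 and 66.0 FPKM), Rps27l (48.3, 118 and 53.5) and Rpl36al (275, 772 and 336) were 2-fold higher in the mM-CSF library and had smaller sM-CSF differences, of 0.33, 0.15 and 0.29. Rpl7l1 was at 51.9, 53.9 and 49.9 FPKM, differences of 0.05 and -0.06. Rpl39l and Rpl3l, which are known from testis and from muscle, stayed below 1 FPKM in each library.

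Some reads of the members could have been assigned to copies. Rpl31-ps12 held 45.1%, 50.02% and 47.5% of the counts joined with Rpl31, and the log2 ratio of shares of mM-CSF to control was 1.36 for the gene alone and 1.499 joined. For Rps15a, with Rps15a-ps4 and Rps15a-ps6, the copies held 45.3%, 47.8% and 43.7%, and the ratio was 1.24 alone and 1.31 joined. Rps27rt, a retrotransposed copy of Rps27, had 84.4 counts in the control and 0 in the other libraries. Values of Rpl14, Rpl31 and Rps15a are uncertain for that reason. Expected counts were whole within 0.005 reads in all libraries for 53 of the 77 members, and their median mM-CSF difference was 1.22.

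Lists of other genes of protein synthesis had smaller median differences than the family as such, but not in each case less genes of like length. By that measure the mM-CSF medians were 0.35 for tRNA synthetases, 0.30 for elongation and termination factors, 0.26 for ribosome biogenesis and 0.23 for initiation factors, beside 0.30 for the family. Between mM-CSF and sM-CSF they were 0.49, 0.29, 0.21 and 0.30, above the 0.08 of the family. Between sM-CSF and control they were -0.11, 0.01, 0.04 and -0.09, below the 0.23 of the family. Other TOP mRNA genes had 0.05 between mM-CSF and sM-CSF, below the family, and 0.05 between sM-CSF and control. Mitochondrial ribosomal proteins had 0.14 and 0.03. The TOP list holds 28 other genes with TOP mRNAs, of which 5 are elongation factor genes of a list below and Fau and Rack1 were described above. Their median mM-CSF difference was 0.64, with 6 of 28 2-fold higher and 0 lower (8.97% and 15.1% of all genes), and 0.20 less genes of like length. On the TPM scale 0 were higher and 1 lower (3.57%), beside 2.5% and 30.3% of all genes. With median-of-ratios scaling 9 were higher (32.1%, beside 11.1% of all genes). Fau and Pfdn5 (159, 368 and 235 FPKM, a difference of 1.20 for mM-CSF), a subunit of the chaperone prefoldin, were among the highest. Pabpc1, the poly(A) binding protein, was at 673, 451 and 594 FPKM and had the lowest difference, at -0.58. The sM-CSF median of this list was 0.25, with 0 of 28 past 2-fold.

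Mitochondrial ribosomal proteins, nuclear-encoded parts of a separate ribosome, had a median mM-CSF difference of 0.80 over 78 genes, with 20 higher and 0 lower, a share of 25.6% beside 27.5% of other genes in the length range of the cytosolic family. Of all genes 8.97% were higher and 15.1% lower. On the TPM scale 1 was higher (1.28%, beside 2.5% of all genes). With median-of-ratios scaling 34 were higher (43.6%, beside 11.1% of all genes). Their median length was 1057 bases, and less genes of like length the median was 0.11. Mrpl23 (43.5, 127 and 62.4 FPKM, 1.52), Mrps21 (72.2, 189 and 101 FPKM, 1.38) and Mrpl54 (50.1, 130 and 54.4 FPKM, 1.36) were highest. Mrps25 (-0.14), Mrps2 (-0.13) and Mrps22 (0.01) were lowest. The sM-CSF median was 0.21 and 0.03 less genes of like length, with 0 of 78 past 2-fold, where the cytosolic family had 0.48 and 0.23.

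Among 34 genes of ribosome biogenesis the median mM-CSF difference was 0.37, which turned to -0.08 on the TPM scale, with 3 genes higher and 1 lower (8.82% and 2.94%, beside 8.97% and 15.1% of all genes). On the TPM scale 0 were higher and 2 lower (5.88%), beside 2.5% and 30.3% of all genes. Nhp2 (49.6, 113 and 54.8 FPKM, 1.17) and Nop10 (91.8, 186 and 119 FPKM, 1.01), proteins of the particles that guide pseudouridylation, and Eif6 (43.6, 95.5 and 48.5 FPKM, 1.11), which binds the large subunit during its assembly, were higher, and less genes of like length they had 0.38, 0.04 and 0.60. Utp20, a large protein of the early small-subunit precursor, was lower, at 8.13, 3.22 and 5.73 FPKM (-1.11), but at 0.09 less genes of like length. The sM-CSF median was 0.10, and -0.04 on the TPM scale.

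Among 25 initiation factors, a list without those placed with the TOP mRNA genes, the median mM-CSF difference was 0.35 (-0.11 on the TPM scale). With 1 higher and 2 lower (4% and 8%), the shares were below the 8.97% and 15.1% of all genes. On the TPM scale 0 were higher and 4 lower (0% and 16%, beside 2.5% and 30.3% of all genes). Eif3i, a subunit of the factor that loads the small subunit, was at 88.4, 178 and 104 FPKM (1.00), and Eif3g (0.97) and Eif1ax (0.90) followed. Eif4ebp2, which encodes a binding protein that holds back the cap-binding factor eIF4E, was at 86.8, 27.7 and 63.2 FPKM (-1.61, and -1.97 less genes of like length). Eif4g1, the scaffold of the cap-binding complex, was at 101, 50.04 and 78.1 FPKM (-1.01, and -0.23 less genes of like length). The sM-CSF median was -0.11, with Eif4ebp2 (-0.45), Eif4g1 (-0.37) and Eif4ebp1 (-0.37) lowest. The initiation factor genes Eif3e, Eif3f, Eif3h, Eif3k, Eif3l, Eif4b and Eif4a2 were counted only with the TOP mRNA genes. Their mM-CSF differences ran from -0.27 (Eif4a2) to 1.14 (Eif3k, above Eif3i). Their sM-CSF differences ran from -0.04 (Eif4b) to 0.34 (Eif3k), so the medians of this list depend on that division.

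The 14 elongation and termination factors had a median mM-CSF difference of 0.31 (-0.14 on the TPM scale), with Eef1d (74.0, 170 and 99.8 FPKM, 1.19) and Eef1b2 (168, 347 and 222 FPKM, 1.05), exchange factors of elongation factor 1, past 2-fold and 0 lower. That is 14.3% higher and 0% lower, beside 8.97% and 15.1% of all genes. On the TPM scale 0 were higher and 1 lower (7.14%), beside 2.5% and 30.3% of all genes. Eef1a1, which brings aminoacyl-tRNA to the ribosome, was at 4696, 6821 and 5607 FPKM (0.54 for mM-CSF and 0.26 for sM-CSF). The recycling factor Abce1 was lowest, at 49.5, 32.0 and 40.2 FPKM (-0.61). Among 20 cytosolic tRNA synthetases the median was 0.37 (-0.09 on the TPM scale), from -0.80 for Iars to 0.80 for Yars. Of them 0 were past 2-fold, beside the same 8.97% and 15.1% of all genes. On the TPM scale 1 was lower (5%), beside 30.3% of all genes. The sM-CSF median of the tRNA synthetases was -0.08. In the sM-CSF comparison no gene of these 6 lists reached 2-fold, against 0.785% of all genes higher and 1.63% lower.

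**Figure D5:**
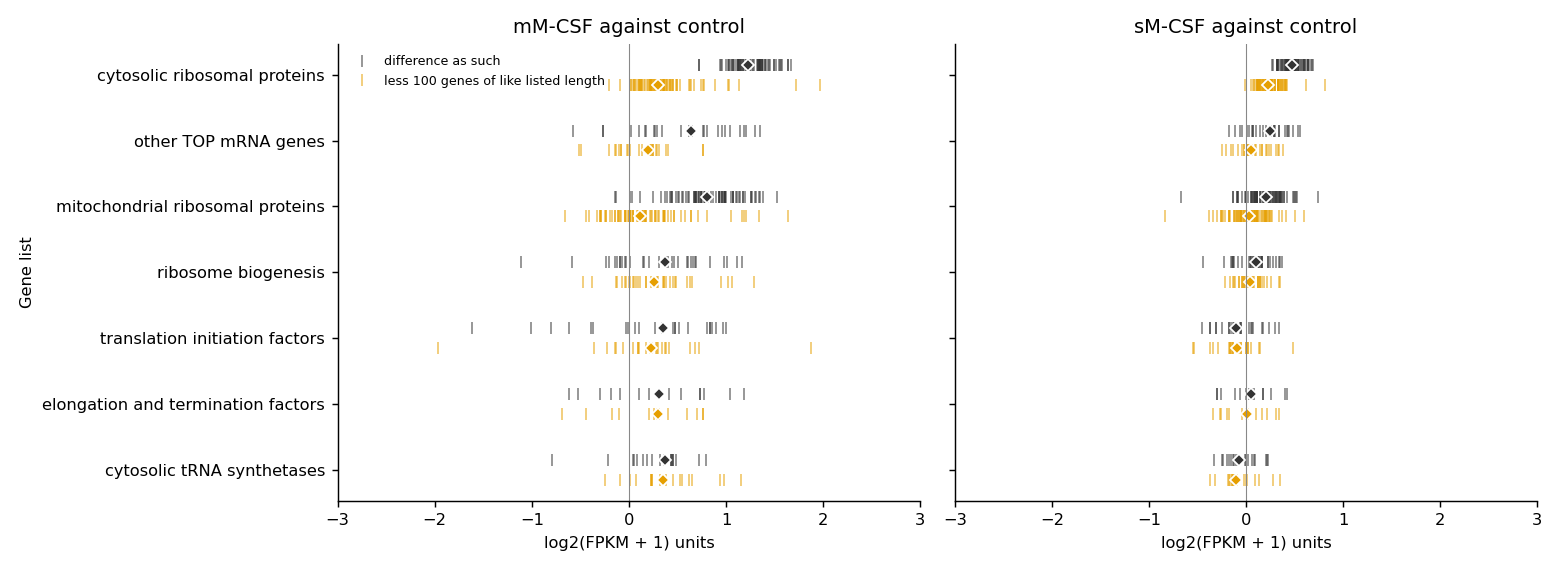
Differences in log2(FPKM + 1) units (horizontal axis) for genes of the family and of 6 lists of protein synthesis (vertical axis), with ticks for genes and diamonds for medians, as such (black) and less 100 genes of like listed length (orange). As such the cytosolic family has the highest median in both panels, 1.23 and 0.48, while less genes of like length the tRNA synthetases have the highest in the left panel, 0.35 against 0.30; on the TPM scale the medians of the biogenesis, elongation, initiation and tRNA synthetase lists in the left panel lie below 0, and those of the cytosolic family do not.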

How the data were processed

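Total RNA of sorted macrophages was sequenced on a BGISEQ-500, per the labels' protocols. The submitters' processing notes name Bowtie2 (2.2.5) and RSEM without roles. For genome build, annotation and strand, the entry is: not given in the sources used here. Each deposited table gives 1 line per NCBI gene ID with its length, expected count and FPKM value, per the file headers, and the authors had scaled FPKM by length and depth. Depth was 9088200 (control), 8570732 (mM-CSF) and 8943847 (sM-CSF) expected counts. Symbols came from RefSeq (GRCm38.p6), and 54 of 17615 IDs had none. A gene not listed in a library was taken as 0.

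Computed here with Python 3.11.15, numpy 2.4.6, pandas 2.3.3 and scipy 1.17.1 were shares of counts with exact Clopper-Pearson intervals and differences of log2(FPKM + 1). A pseudocount of 1 understates changes of low genes. With 1 library per group, no model was fitted and no p-value was computed. The calculation was tested on simulated data. Each member was also set against the median of the 100 genes at 5 FPKM or more nearest in listed length, without genes of the family and its copies, or in coding length (longest complete coding sequence in GENCODE M21). Promoter windows came from RefSeq. Some named genes that the rules below would give are not reported here.

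The members, lists and tests were chosen with earlier results of these data known. Named members were, per comparison, the 6 highest and 6 lowest with and without the length adjustment, the 5 highest and 5 lowest in the control, the 3 shortest and 3 longest, and 12 with a well-known role. Named list genes came from the 3 highest and 3 lowest of each list in each comparison at 5 FPKM or more. Alternatives were TPM, median-of-ratios and upper-quartile scaling, a pseudocount of 0.1, a size of 1.5-fold, other numbers and kinds of comparison genes, members with whole counts, and joined pseudogene counts.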

Additional observations from a re-analysis of the deposited data

How the results depend on the processing

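No paired analysis was possible because each group has 1 library, and for the same reason no library could be left out. Under each scaling and pseudocount run, all 77 members had a difference above 0 in the 3 comparisons. The following values are given for mM-CSF against control, sM-CSF against control and mM-CSF against sM-CSF, in that order. The members' medians of 1.23, 0.48 and 0.77 were 0.77, 0.33 and 0.45 as TPM, 1.32, 0.43 and 0.91 with median-of-ratios scaling, 1.33, 0.47 and 0.88 with upper-quartile scaling, and 1.22, 0.47 and 0.77 over members with whole counts. Less genes of like length (0.30, 0.23 and 0.08) they were 0.32, 0.24 and 0.0929 with 300 comparison genes, 0.27, 0.22 and 0.0621 with a pseudocount of 0.1, and 0.72, 0.34 and 0.39 by coding length. With 50 comparison genes the values for mM-CSF and sM-CSF against control were 0.28 and 0.24. With genes also alike in expression those for sM-CSF against control and mM-CSF against sM-CSF were 0.27 and 0.11. Over members of 500 bases or longer those of the mM-CSF library against control and sM-CSF were 0.32 and 0.10. The comparison genes alike in expression still had a median mean level of 303 FPKM, against 1429 for the members.

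Of 72 members past 2-fold in mM-CSF against control, the count was 10 as TPM (2.5% of all genes), 5 less genes of like length (3.26%) and 3 by coding length (3.61%). The count was 75 with median-of-ratios scaling (11.1% of all genes) and 75 with upper-quartile scaling (11.5%). For sM-CSF against control it was 14 at a size of 1.5-fold (4.2% of all genes) and 0 otherwise. Between the M-CSF libraries, with 4, it was 73 at 1.5-fold (15% of all genes), 0 as TPM (1.65%), 20 with median-of-ratios scaling (6.11%, with the all-gene median shifted by 0.11), 17 with upper-quartile scaling (5.65%), 2 less genes of like length (2.19%) and 0 by coding length (2.26%). The family's shares of 5.20%, 12.3% and 7.19% (control, mM-CSF, sM-CSF) were 5.43%, 12.9% and 7.49% with the near copies and fusion genes that the rule leaves out added. As parts of summed FPKM they were 15.4%, 27.0% and 19.4%. Without globin, immunoglobulin and mitochondrially encoded genes the shares of counts were 5.23%, 12.5% and 7.22%. Only 9, 11 and 9 such genes, Jchain among them, had counts, and they held 0.505%, 0.958% and 0.447% of all counts. Leaving them out could thus move the shares only a little.

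As TPM, medians turned below 0 for ribosome biogenesis (-0.0767, -0.0430 and -0.0242), elongation and termination factors (-0.14, -0.0957 and -0.0380), initiation factors (-0.11 for mM-CSF against control) and tRNA synthetases (-0.0879 there). The TPM scale divides by a total to which the family itself adds. Counting error is small for members, which had at least 878 counts in a library, and without replicates the spread between mice is unknown.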
